A study of Mus musculus with 9 samples.

Results

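The genes described here are the cytosolic ribosomal protein genes, taken as all symbols in the gene table that begin with Rps, Rpl or Rplp and a number, with a mean of at least 100 estimated reads over the 9 libraries. Symbols of pseudogenes, of the Rps6k kinase family and of Rps19bp1 were left out (18 of the 105 symbols that matched), and 5 more were below the mean. This left 82 of 24532 genes: 33 Rps, 46 Rpl and 3 Rplp symbols. The members were chosen by symbol and by their mean read count, so their high level is no result. The nearest gene below the limit was Rpl26, with a mean of 53.7 reads, and the nearest above it was Rpl37rt, with 286.3.

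Whole-liver messenger RNA of wild-type C57BL/6 mice was sequenced in 9 poly(A)-selected libraries. Every mouse had received intraperitoneal thioacetamide (TAA), a liver toxin that causes fibrosis, in rising doses over 10 weeks. Controls were given saline (TAA replicates 12, 13 and 14), and the other groups were given recombinant human cytoglobin (rhCYGB), a globin protein, into the tail vein. The dose was 2 mg/kg in both, over the final 2 weeks of TAA for replicates 17, 18 and 19 and over the final 5 weeks for replicates 23, 27 and 28. All 9 livers were injured, no liver without TAA was analysed here, and the labels give neither age nor sex. Whether each sample came from its own mouse is not stated either, and a p-value then reflects only how far these samples scatter, which may be technical.

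A ribosome consists of a small and a large subunit, each built from ribosomal RNA and ribosomal proteins that are made in matching amounts. In vertebrates the messenger RNAs of these proteins usually start with a run of pyrimidines beginning with C, the terminal oligopyrimidine (TOP) tract, through which the TOR kinase pathway adjusts their translation. Hepatocytes secrete most plasma proteins and depend on a large pool of ribosomes.

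The windows below show where that tract lies, or is missing, around annotated transcription starts of members to which the results return. Each runs from 10 bases before the start to 20 from it, 5′ to 3′, from RefSeq (GRCm38.p6). Capitals mark a tract, searched on the gene's own strand as a C followed by at least 4 bases that are C or T, with the C within 5 bases of the start.
Rps6, chr4:86857348-86857377, minus strand: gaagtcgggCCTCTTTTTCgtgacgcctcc
Rps27, chr3:90213629-90213658, minus strand: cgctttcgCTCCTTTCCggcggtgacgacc
Rps27rt, chr9:114982720-114982749, minus strand: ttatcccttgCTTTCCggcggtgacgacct
Rps27l, first start, chr9:66946076-66946105, plus strand: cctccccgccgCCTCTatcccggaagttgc
Rplp2, chr7:141447641-141447670, plus strand: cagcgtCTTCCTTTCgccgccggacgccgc
Rpl22l1, chr3:28805498-28805527, plus strand: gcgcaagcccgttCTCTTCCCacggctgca
Rps12, chr10:23787190-23787219, minus strand: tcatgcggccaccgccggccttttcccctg
Of 61 members with a promoter entry, 30 (49.2%) held such a tract, against 5718 of 27025 genes with an entry (21.2%) and 2741 of 11591 tested genes outside the list (23.6%). Rps12 is shown because its pyrimidine run lies further from the annotated start than the search allowed. A match describes letters in a window and no more, and the other 21 members were not searched.

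Rps27 and Rps27rt are shown next because reads cannot tell them apart by their coding parts. Rps27 encodes a zinc-finger protein of the small subunit, Rps27rt is an intronless copy, and Rps27l is a paralog known as a p53 target. The coding sequences, without the stop codon, come from GENCODE M21 (GRCm38). Rps27 has 4 coding exons (chr3:90212728-90213615, minus strand), Rps27rt 1 (chr9:114982456-114982707, minus strand) and Rps27l 4 (chr9:66946175-66949354, plus strand). Rps27 and Rps27rt, 252 bases each, differ at 0 positions and share the first line. Capitals in the second mark the 60 bases of Rps27l that differ (76.2% identity).
Rps27 and Rps27rt: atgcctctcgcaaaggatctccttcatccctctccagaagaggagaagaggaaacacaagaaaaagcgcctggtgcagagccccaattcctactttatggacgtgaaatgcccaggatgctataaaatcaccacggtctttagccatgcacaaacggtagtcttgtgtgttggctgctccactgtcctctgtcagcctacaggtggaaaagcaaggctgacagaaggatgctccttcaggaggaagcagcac
Rps27l: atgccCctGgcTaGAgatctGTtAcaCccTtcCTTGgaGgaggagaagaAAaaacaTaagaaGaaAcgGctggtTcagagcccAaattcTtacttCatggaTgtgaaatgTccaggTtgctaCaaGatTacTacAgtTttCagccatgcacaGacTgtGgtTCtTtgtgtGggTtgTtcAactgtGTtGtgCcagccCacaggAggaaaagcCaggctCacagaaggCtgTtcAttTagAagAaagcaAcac

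Scaled to the bulk of genes, the median ribosomal protein gene stood above its level in every control in 2-week replicates 17 and 18 and 5-week replicate 27, and was lowest in 5-week replicate 23. As shares of all reads, no treated liver exceeded TAA replicate 14. Leaving out the 100 most abundant other genes put replicates 17 and 18 above it (6.58% and 6.47% against 6.17%). The members made up 3.05%, 2.79% and 3.60% of all estimated reads in the TAA livers, 3.50%, 3.48% and 2.85% after 2 weeks of rhCYGB, and 1.86%, 3.16% and 2.64% after 5 weeks. The means were 3.15% ± 0.411 (SD, n = 3), 3.28% ± 0.373 and 2.55% ± 0.654, and all 3 groups overlapped. In bulk liver, fewer cells of a type and less RNA per cell cannot be told apart.

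CPM values below, counts scaled to a common library size, use TMM, edgeR's factors that align the bulk of genes between libraries. On that scale the median member differed from its TAA mean by -0.01, -0.22 and 0.24 (log2) in the TAA livers. It differed by 0.63, 0.49 and 0.12 in 2-week replicates 17, 18 and 19 and by -0.54, 0.34 and -0.12 in 5-week replicates 23, 27 and 28. Single members mostly followed: 80, 81 and 68 of 82 were above their TAA mean in the 2-week livers, and 1, 80 and 7 in the 5-week livers. The 3 livers of the 5-week group thus lay on both sides of the controls.

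**Figure D1:**
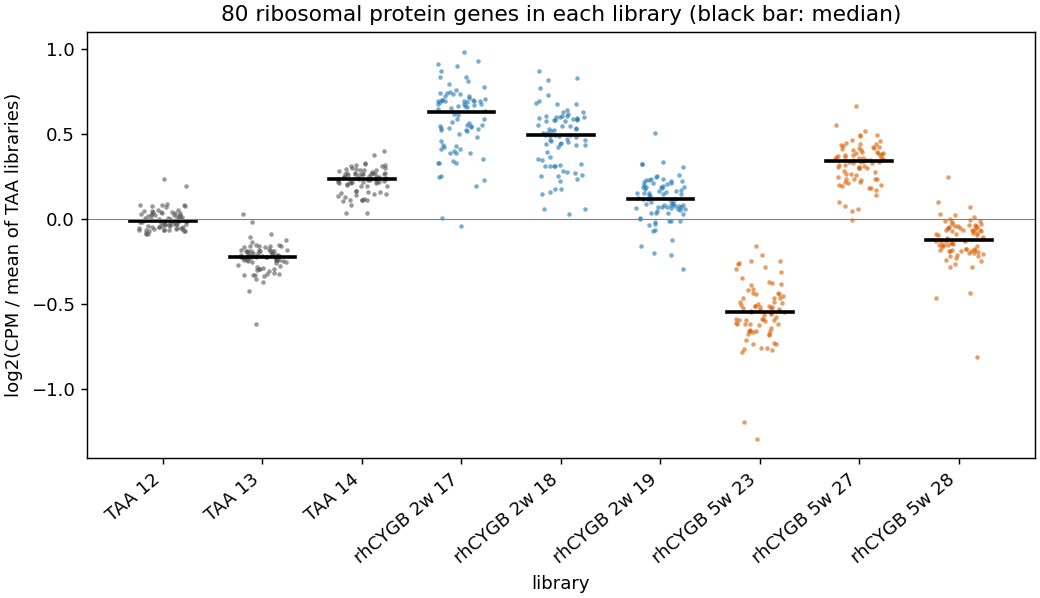
Log2 ratio of each gene's CPM to the mean of the TAA libraries (vertical axis) in the 9 libraries (horizontal axis), for the 80 members other than Rps27 and Rps27rt; points are genes and black bars medians. Genes move together within a library: nearly all lie above 0 in 2-week replicates 17 and 18 and 5-week replicate 27, and below 0 in 5-week replicate 23.

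The first comparison, of 2 weeks of rhCYGB with TAA, addresses messenger RNA for the ribosome after the shorter course. The median member was 0.41 higher on the log2 scale, against -0.03 over all 14731 tested genes, and 81 of 82 members lay above 0. No member passed edgeR's quasi-likelihood test (0 of 82 at an adjusted p under 0.05), against 3.31% of all tested genes. At an unadjusted p under 0.05 there were 7 members, against 23.4% of tested genes, and DESeq2, another count model, called 1 member, Rps27l, against 11.6%. All 3 treated livers lay above all 3 controls for 13 members and below them for 0, against 17.3% and 16.3% of tested genes. Scaling by library totals alone put the median member at 0.07 and the median gene at -0.36, with 58 of 82 members above 0. The gap between the medians was 0.44 with TMM and 0.43 with library totals.

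Rps6, a small-subunit protein phosphorylated by the S6 kinases downstream of TOR, measured 408, 383 and 444 CPM in TAA, 521, 498 and 446 CPM after 2 weeks, and 344, 477 and 407 CPM after 5 weeks. The 2-week livers lay just above the controls and the 5-week livers spread around them. Its log2 change was 0.24 ± 0.14 (SE) at 2 weeks, with an adjusted p of 0.31 by edgeR, and -0.01 ± 0.14 at 5 weeks (adjusted p = 0.981). Rps19, the gene most often mutated in Diamond-Blackfan anaemia, spread wider, with 274, 224 and 344 CPM in TAA, 521, 459 and 290 CPM after 2 weeks, and 162, 380 and 247 CPM after 5 weeks. Its groups overlapped, with changes of 0.59 ± 0.31 (adjusted p = 0.278) and -0.09 ± 0.31 (adjusted p = 0.907). Rps3, which lines the channel where messenger RNA enters, changed by 0.37 ± 0.21 at 2 weeks (adjusted p = 0.311) and its groups overlapped. Across the 30 small-subunit members the 2-week median was 0.39. All 2-week livers lay above all controls for 4 of them, against 17.3% of all tested genes.

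The 3 stalk proteins Rplp0, Rplp1 and Rplp2, which recruit elongation factors to the large subunit, had log2 differences of 0.45 ± 0.22, 0.50 ± 0.30 and 0.57 ± 0.23 at 2 weeks (adjusted p = 0.252, 0.323 and 0.173). Rplp2 measured 191, 166 and 228 CPM in TAA, 332, 309 and 223 CPM after 2 weeks, and 137, 245 and 183 CPM after 5 weeks. Replicate 19 kept the 2-week group from clearing the controls. Rplp1 was the most abundant member per length, with 1455 FPKM (the authors' fragments per transcript length and library size) as a mean over all libraries, and Rpl37rt the least, with 6.55.

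Among the 42 large-subunit members the 2-week median was 0.44. In 6 of them all 2-week livers lay above all controls, against 17.3% of all tested genes. Rpl36 had the largest difference of these, with 134, 107 and 167 CPM in TAA, 245, 245 and 169 CPM after 2 weeks, and 99.1, 197 and 133 CPM after 5 weeks. All 2-week livers were above all controls, replicate 19 barely, and the log2 change was 0.69 ± 0.26 (adjusted p = 0.157). Rpl35a (0.45 ± 0.16, adjusted p = 0.143) and Rpl10, which joins the subunit late in its maturation (0.49 ± 0.20, adjusted p = 0.173), also had groups that did not overlap. Rpl5 and Rpl11, which with 5S ribosomal RNA bind the p53 regulator Mdm2, differed by 0.16 ± 0.14 (adjusted p = 0.52) and 0.50 ± 0.25 (adjusted p = 0.259). Rpl3, which lies at the peptidyl transferase centre, measured 465, 445 and 508 CPM in TAA, 474, 535 and 423 CPM after 2 weeks, and 331, 471 and 394 CPM after 5 weeks. Its 2-week change was 0.01 ± 0.15 (adjusted p = 0.965), well under the median member.

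The paralogs did not move alike. Rps27l measured 186, 166 and 233 CPM in TAA, 383, 300 and 275 CPM after 2 weeks, and 163, 306 and 208 CPM after 5 weeks. Every 2-week liver exceeded every control, with a log2 change of 0.71 ± 0.24 (adjusted p = 0.116). DESeq2 gave an adjusted p of 0.0412, and over all alternatives the range was 0.0412 to 0.487. Rpl22l1, the paralog of Rpl22, measured 44.5, 38.3 and 54.5 CPM in TAA, 44.1, 47.2 and 37.1 CPM after 2 weeks, and 28.4, 47.8 and 33.6 CPM after 5 weeks. The groups overlapped, and its change of -0.10 ± 0.21 (adjusted p = 0.797) was the only one below 0. Rpl22 itself, an RNA-binding protein that lowers Rpl22l1 expression, differed by 0.45 ± 0.21 (adjusted p = 0.233). Rpl36al and Rpl7l1, the latter an assembly factor related to Rpl7, had groups that did not overlap at 2 weeks, with changes of 0.50 ± 0.19 (adjusted p = 0.157) and 0.10 ± 0.12 (adjusted p = 0.614). Rps4l (0.19 ± 0.38, adjusted p = 0.783) spread widest apart from Rps27 and Rps27rt. A search of GENCODE M21 by symbol found no coding sequence for Rps4l and Rpl37rt, whereas it found one for the other 80 members. The deposited table lists Rps4l as a non-coding transcript and Rpl37rt as messenger RNA.

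The second comparison sets the longer course of 5 weeks against the same 3 control livers. The median member was -0.08 on the log2 scale, against 0.01 over all tested genes, and 74 of 82 members lay below 0. No member passed the edgeR test (0 of 82), against 1.29% of tested genes. At an unadjusted p under 0.05 there was 1, Rps27, against 19.2%, and it was also the 1 member DESeq2 called, against 8.4%. No member had groups that did not overlap in either direction, against 11.6% higher and 13.4% lower among tested genes. With library totals alone the median member was -0.30 and the median gene -0.21. Without replicate 23 the median member was 0.10, and without replicate 27 it was -0.33.

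Comparing rhCYGB 5 weeks against rhCYGB 2 weeks tests the courses against each other. The median member was -0.50, against -0.01 over all tested genes, and 81 of 82 members lay below 0. The edgeR test called 0 of 82 members, against 0.0204% of tested genes, although 27 members had an unadjusted p under 0.05 (23.2% of tested genes). DESeq2 called 1, Rps27, against 5.93%. No member had groups that did not overlap, against 10.9% higher and 10.2% lower among tested genes. Among the largest differences, apart from Rps27, were those of Rpl37rt (-0.96 ± 0.38, adjusted p = 0.19) and Rps19 (-0.69 ± 0.31, adjusted p = 0.22). Without 5-week replicate 27, edgeR called 32 members, all lower at 5 weeks, with a median of -0.76 and a background of 6.12% of genes called lower. Replicate 27 had the highest member median of the 5-week livers, so a lower 5-week value follows from leaving it out. These calls are on the scale without length correction. On that scale, with all libraries, other genes under 600 bases had a median of -0.45 in this comparison. Without 2-week replicates 17 and 18 and 5-week replicate 23, which lay furthest out on the first principal component of all genes, the median member was 0.01. That leaves replicate 19 as the only 2-week library, and the libraries removed are also those with the most extreme member medians, so a value nearer 0 follows from leaving them out.

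The members' transcripts are short, with a median of 693.5 bases against 2736 over all tested genes, and 64 of 82 are under 1000 bases. Genes outside the list that are as short moved in the same libraries. Those under 600 bases (332 genes) had median deviations from the TAA mean of 0.00, -0.19 and 0.20 in TAA, 0.65, 0.50 and 0.30 after 2 weeks, and -0.32, 0.44 and -0.03 after 5 weeks. Genes of 4000 bases or more had the opposite sign in every library except TAA replicate 12, where both were near 0. Their medians were -0.26 in both replicates 17 and 18 and 0.26 in replicate 23. At 2 weeks against TAA the medians of other genes ran from 0.49 under 600 bases through 0.38, 0.19 and -0.06 to -0.23 at 4000 bases or more. The members under 600 bases stood at 0.47 and those from 600 to under 1000 bases at 0.39.

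**Figure D2:**
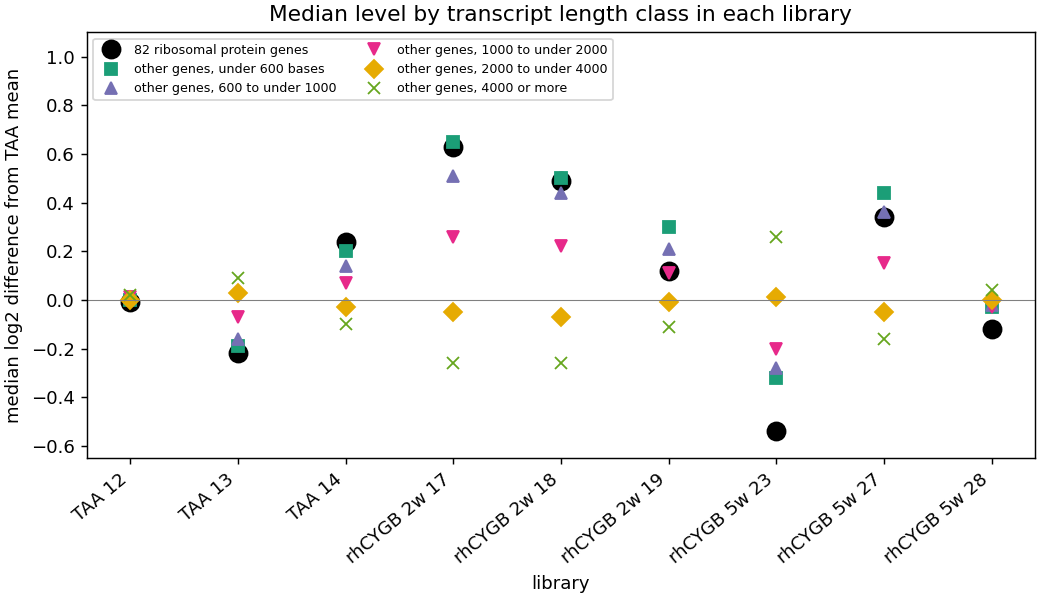
Median log2 difference from the TAA mean (vertical axis) in each library (horizontal axis) for the 82 ribosomal protein genes (black) and for other tested genes in 5 classes of transcript length. The members sit beside the other genes under 600 bases in replicates 17 (0.63 and 0.65) and 18 (0.49 and 0.50). They lie below those genes in replicates 23 (-0.54 and -0.32) and 19 (0.12 and 0.30). Smaller gaps in the same direction are seen in replicates 27 (0.34 and 0.44) and 28 (-0.12 and -0.03).

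Longer members were an exception to that order. The 18 members of 1000 bases or more had a 2-week median of 0.36, while the 13446 other genes of that length had -0.06. Of these 18, 16 have a coding length under 1000 bases. The Rps15a and Rps20 records are 5134 and 3446 bases long, for coding lengths of 390 and 357. Within the members, Spearman's correlation of length with the 2-week change was -0.38 (82 genes in the same libraries, a description).

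**Figure D3:**
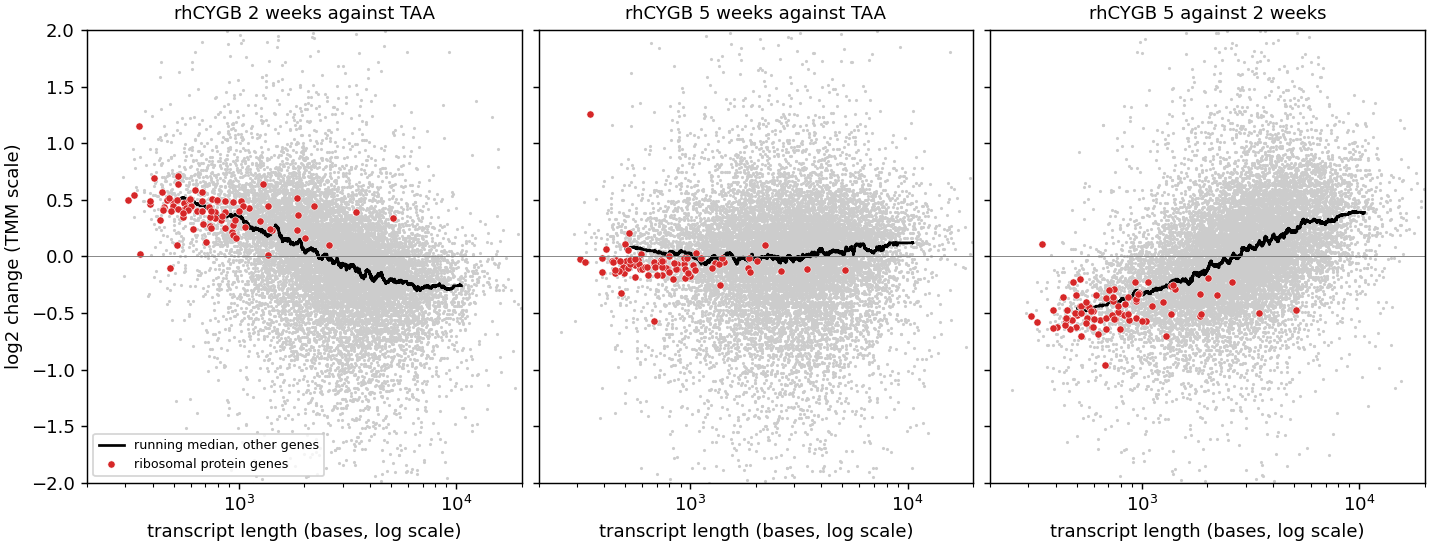
Log2 change (vertical axis, TMM scale) against transcript length in bases (log axis) in the 3 comparisons; grey points are other tested genes, the black line is their running median, and red points are ribosomal protein genes. Values beyond 2 in either direction are not drawn, which leaves out Rps27 in the comparisons with 5 weeks (-5.62 and -5.64). At 2 weeks against TAA the shortest members follow the line and the longer ones lie above it.

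When each library's trend over transcript length, fitted on genes outside the list, was removed, the 2-week median of the members went from 0.41 to -0.02 and 37 of 82 lay above 0. The median SE went from 0.23 to 0.10. In the comparison of 5 with 2 weeks the median went from -0.50 to -0.11, and at 5 weeks against TAA from -0.08 to -0.11. The remaining deviations per library were -0.01, -0.07 and 0.09 in TAA, 0.05, 0.03 and -0.10 after 2 weeks, and -0.23, -0.03 and -0.09 after 5 weeks, so the low value of replicate 23 was reduced and not removed. Members of 1000 bases or more kept a 2-week median of 0.14. The median correlation between pairs of members over the 9 libraries was 0.97 before removal and 0.58 after it (80 members, without Rps27 and Rps27rt).

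On the length-corrected scale edgeR called 1 member at 2 weeks against TAA (4.42% of tested genes), 0 at 5 weeks against TAA (4.12%) and 0 between the courses (0.0407%). Rpl22l1 was lower at 2 weeks, with a log2 change of -0.60 ± 0.09 (adjusted p = 0.0171, with a range of 0.0171 to 0.992 over all alternatives). The 3 treated livers then lay below the 3 controls. With GC content corrected as well, the change was -0.46 (adjusted p = 0.0586). At 5 weeks it was -0.37 ± 0.09 with length removed (adjusted p = 0.0561) and -0.47 with length and GC removed (adjusted p = 0.0498), with a range of 0.0498 to 0.8. Rps12 was next at 2 weeks, at -0.41 ± 0.11 (adjusted p = 0.0641), from 0.10 ± 0.15 before correction. Rpl22 stood at 0.40 ± 0.19 (adjusted p = 0.238). The long records of Rps15a (0.54) and Rps20 (0.51), named here after their values were seen, and Rps27rt (0.88) lay higher. The correction turned the correlation of length with the 2-week change around among members, from -0.38 to 0.41, while it was -0.01 among other genes. On the corrected scale the 2-week median was -0.04 for members under 1000 bases and 0.14 for those of 1000 bases or more. Whether the members' remaining trend over length bears on the values of Rpl22l1 and Rps12 was not tested. Rps27l stood at 0.21 ± 0.09 (adjusted p = 0.222).

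**Figure D4:**
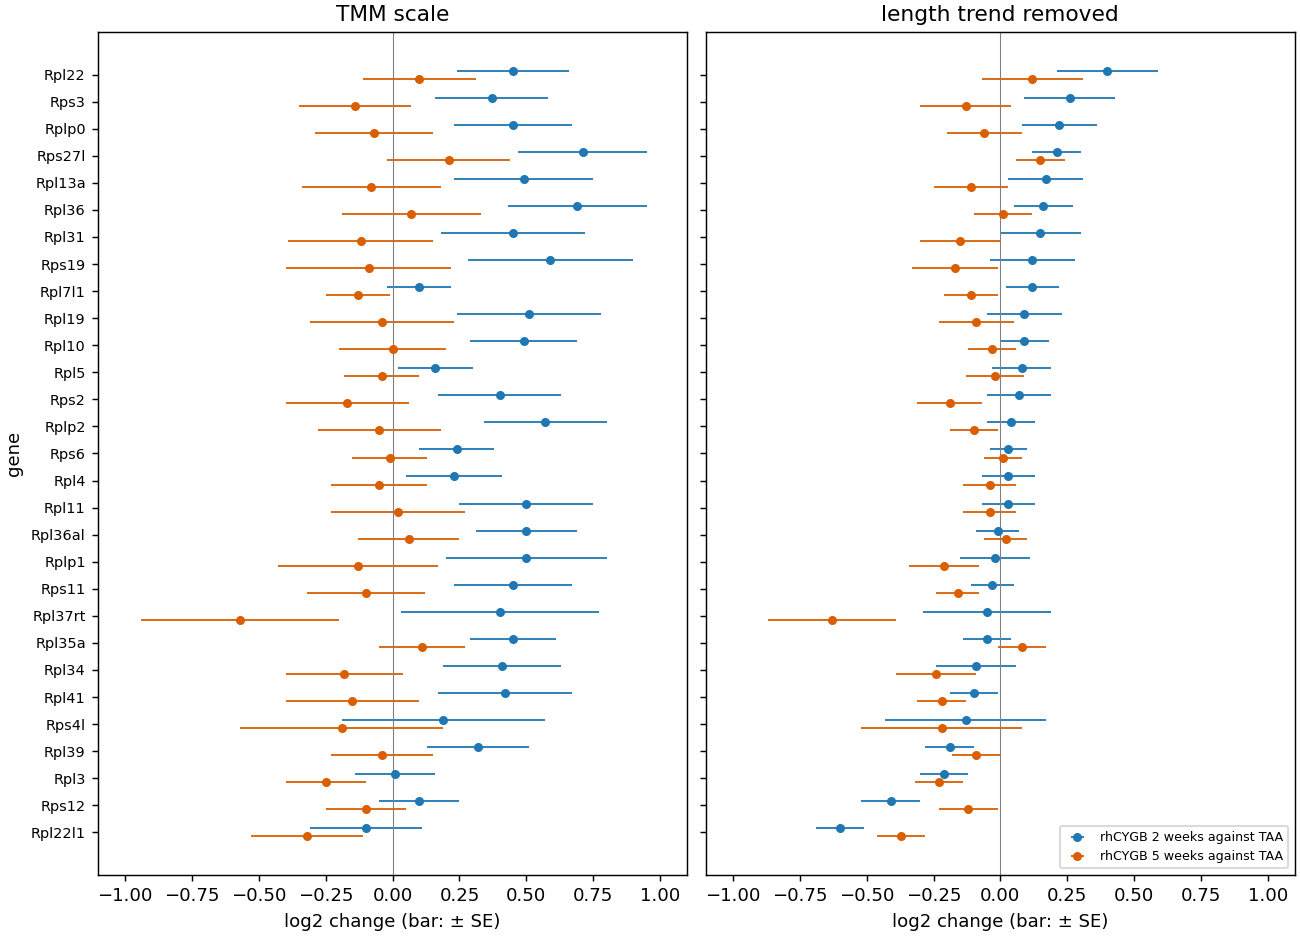
Log2 change with SE (horizontal axis) for named ribosomal protein genes (vertical axis), at 2 weeks (blue) and 5 weeks (orange) against the shared TAA controls, on the TMM scale (left) and with the length trend removed (right). With the trend removed most 2-week values gather near 0, while Rpl22l1 (-0.60) and Rps12 (-0.41) lie lowest.

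Rps27 and Rps27rt had the widest spread of all members, and they traded places between libraries. Rps27 measured 175, 133 and 2.35 CPM in TAA, 311, 2.66 and 2.46 CPM after 2 weeks, and 1.76, 2.67 and 1.93 CPM after 5 weeks. Rps27rt measured 1.89, 1.75 and 212 CPM in TAA, 2.52, 281 and 195 CPM after 2 weeks, and 116, 248 and 154 CPM after 5 weeks. Wherever one was above 100 CPM the other was under 3 CPM, also within the controls. The deposited transcript table places both records at the same place in mm10, a 346-base transcript at chr3:90212667-90213648 and a 345-base transcript at chr3:90212667-90213647, whereas RefSeq and GENCODE place Rps27rt on chromosome 9.

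As separate genes they gave the largest fitted differences of all members: Rps27 was -5.62 ± 2.01 at 5 weeks against TAA (adjusted p = 0.173 by edgeR and 0.0224 by DESeq2, the lowest of its range up to 0.991). Summed, they measured 177, 135 and 215 CPM in TAA, 313, 284 and 197 CPM after 2 weeks, and 117, 251 and 155 CPM after 5 weeks. The sum followed the other members library by library. Its log2 changes were 0.59 ± 0.29 (adjusted p = 0.245), -0.01 ± 0.29 (adjusted p = 0.991) and -0.60 ± 0.29 (adjusted p = 0.232) for 2 weeks against TAA, 5 weeks against TAA and 5 against 2 weeks. The values of Rps27 and Rps27rt as single genes are therefore uncertain.

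**Figure D5:**
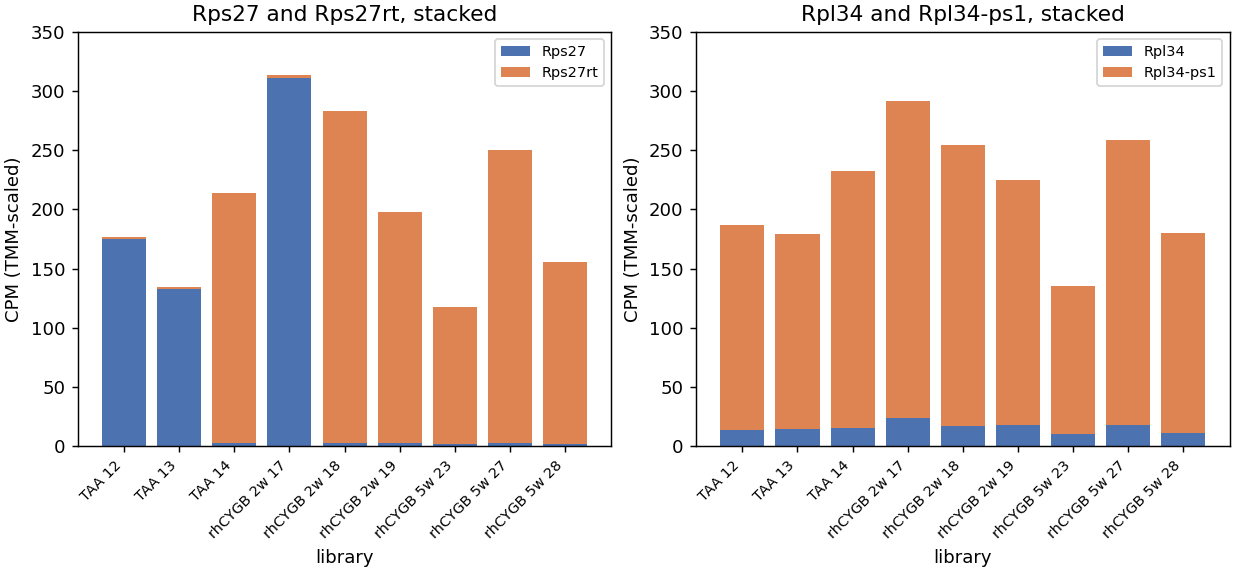
Stacked CPM (vertical axis) of Rps27 with Rps27rt (left) and of Rpl34 with Rpl34-ps1 (right) in each library (horizontal axis). In every library nearly all Rps27 signal stands under 1 of its 2 symbols, while Rpl34 keeps a small share throughout.

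Rpl34 shared its locus in the same way with a record that the symbol rule left out. Rpl34 measured 13.8, 14.4 and 15.4 CPM in TAA, 23.6, 16.4 and 17.9 CPM after 2 weeks, and 10.4, 17.7 and 10.5 CPM after 5 weeks. The Rpl34-ps1 record, at chr3:130726837-130730329 inside the Rpl34 span, held 173, 165 and 217 CPM, then 268, 238 and 207 CPM, then 125, 241 and 170 CPM. Most reads of the locus thus lay under the pseudogene symbol in all 9 libraries. The sum differed by 0.36 ± 0.22 at 2 weeks (adjusted p = 0.338), and Rpl34 alone by 0.41 ± 0.22 (adjusted p = 0.283).

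The symbol rule did not match some other genes of cytosolic ribosomes. Fau, whose product includes a small-subunit protein, measured 228, 188 and 277 CPM in TAA, 424, 381 and 274 CPM after 2 weeks, and 152, 330 and 214 CPM after 5 weeks. Its groups overlapped, with a 2-week change of 0.64 ± 0.28 (adjusted p = 0.2). Rpsa, a small-subunit protein, changed by 0.45 ± 0.25 (adjusted p = 0.295). Rack1, a scaffold on the small subunit, was at 0.19 ± 0.18 (adjusted p = 0.545).

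Other genes of protein synthesis were read from lists. Of 78 mitochondrial ribosomal protein genes, 0 were called in any comparison, with medians of 0.38 at 2 weeks, 0.06 at 5 weeks and -0.31 between the courses. Mrps12 had the lowest p at 2 weeks, at 0.57 ± 0.15 (adjusted p = 0.0606). Of 77 tested nuclear genes for oxidative phosphorylation subunits, 4 rose at 2 weeks and 0 fell, with a median of 0.62. Of all 14731 tested genes, 291 rose and 197 fell. With length removed the median was 0.20 and 3 were called higher, against 385 of 14731 tested genes. Ndufs7, a complex I subunit, rose by 0.79 ± 0.12 (adjusted p = 0.024) and Cox4i1, a cytochrome oxidase subunit, by 0.69 ± 0.15 (adjusted p = 0.0392). Neither passed with length removed (0.39, adjusted p = 0.213, and 0.27, adjusted p = 0.103). At 5 weeks against TAA, 2 subunit genes were called higher with length removed, against 379 of 14731 tested genes. Ribosome biogenesis and RNA polymerase I genes, 54 tested, had medians of -0.08 and -0.07 against TAA at 2 and 5 weeks, with 0 called. With length removed 3 of them were lower at 2 weeks, against 266 of 14731 tested genes called lower on that scale. Among the 3 was Nop58, a box C/D nucleolar protein (-0.67, adjusted p = 0.0374 by edgeR). At 5 weeks against TAA 1 biogenesis gene was lower with length removed, against 228 of 14731 tested genes. The difference in shares was not tested. The 20 TOR pathway genes had medians of -0.05 and 0.16, also with 0 called. With length removed 1 of them was called higher at 5 weeks, against 379 of 14731 tested genes. It was Deptor (0.68, adjusted p = 0.0476 by edgeR). Genes of the 18-member proteasome core and 21 other TOP messenger RNAs of translation had 2-week medians of 0.28 and 0.29, with 0 called in each.

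The tested genes outside the list whose log2 CPM over the 9 libraries was most like the members' median were Banf1 (Pearson's r of 0.997), Vps72 (0.995), Eif3f (0.994), Snrpd2 (0.993) and Pfdn1 (0.992). These points share libraries and depth, and the values are a description. After length correction Banf1 and Sirt6 were closest (0.981 each).

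Library totals ran from 55655727 to 87289945 estimated reads. Hepatocyte markers (10 of 10 in the table, 0 called at 2 weeks and 1 at 5) summed to between 100000 and 115000 CPM in TAA, 110000 and 150000 CPM at 2 weeks, and 109000 and 150000 CPM at 5 weeks. Their highest sums, 147000, 150000 and 150000 CPM, were in replicates 17, 18 and 27, where the members were also highest. Lymphocyte markers (9 of 10 in the table, 2 of 9 rose at 2 weeks, Cd3e at 0 in some library) summed to between 7.45 and 10.4 CPM in TAA, 15.5 and 33.3 CPM at 2 weeks, and 7.08 and 27.4 CPM at 5 weeks, and their highest sums were in the same 3 libraries (29.3, 33.3 and 27.4 CPM). The stellate cell and myofibroblast list (2 of 10 fell at each course) summed to between 1330 and 2000 CPM in TAA, 499 and 895 CPM at 2 weeks, and 371 and 807 CPM at 5 weeks. Of 8 markers of dividing cells, 6 fell at 2 weeks and 4 at 5 weeks, from sums of 196 to 220 CPM in TAA to 91.2 to 134 CPM and 119 to 123 CPM. The part of these cell types in the members' values was not tested.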

How the data were processed

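Liver RNA of 3 groups of 3 samples was sequenced as strand-marked, paired-end poly(A) libraries, per the labels' protocols. The tools StringTie 1.3.4d, HISAT2 2.1.0 and FastQC 0.11.7 and the build mm10 are credited to the submitters' processing notes. The authors deposited estimated counts per gene and per transcript, which are whole numbers; how they were derived from StringTie output, and whether counting used strand, is not given in the sources used here. The FPKM values are the authors' deposited ones and served for levels per length and for alternatives. Transcript lengths come from the deposited transcript table. A gene's length is the mean over its transcripts, weighted by each transcript's mean FPKM over the 9 libraries.

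Genes passing edgeR's filterByExpr (minimum count 10, minimum total 15), 14731 of 24532 and all 82 members, received TMM factors and entered the quasi-likelihood F test of edgeR 4.0.16 (R 4.3.3), all 9 libraries in 1 fit with 3 groups and 6 residual degrees of freedom. P-values were adjusted by Benjamini-Hochberg over all tested genes, and calls made under 0.05. The common biological coefficient of variation was 24.9%. SE is a log2 change, without its sign, over the root of its F statistic. Comparisons against TAA share the same controls. Length trends were loess curves (span 0.3) over log10 length, fitted in each library and used as offsets. The curves were fitted to each gene's log2 CPM minus its mean over all libraries. Alternatives used DESeq2 1.42.0, limma 3.58.1 on log2(FPKM + 1) and log2(FPKM + 0.1), other scalings, no filter, fewer libraries, and sums over shared loci. The scripts were tested on simulated data.

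The members, the gene lists and the tests were chosen with earlier results of these data known. Members named are, per comparison, the 3 highest and 3 lowest changes and the 5 lowest p-values, the 8 with the widest range inside a group, the 5 with the highest FPKM, and a panel of known roles; of each list, up to 3 called genes or else the gene with the lowest p. The lists of macrophage and monocyte, cholangiocyte and erythroid markers had 9, 7 and 4 tested genes; in the same order, 1, 0 and 1 rose and 1, 0 and 0 fell at 2 weeks, and 0 changed at 5 weeks. Some genes that these rules name are not reported here.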

Additional observations from a re-analysis of the deposited data

How the results depend on the processing

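No paired analysis was possible because the groups share no replicate number. The number of members called was 0 in each comparison and became 1 with DESeq2 in each, 1 with the length trend removed at 2 weeks against TAA, and 1 with length and GC trends removed at 5 weeks against TAA. Leaving out 1 library at a time gave 0 members throughout in both comparisons against TAA, and 0 to 32 between the courses. The 32 came without replicate 27, the 5-week library with the highest member median. The members' median, 0.41, -0.08 and -0.50, ranged over these from 0.28 to 0.55, from -0.33 to 0.10 and from -0.76 to -0.30. It became -0.02 at 2 weeks with the length trend or with length and GC trends removed. Between the courses it became -0.11 and -0.08 with these, and 0.01 without 2-week replicates 17 and 18 and 5-week replicate 23. Leaving out those 3 libraries gave 0.10 at 2 weeks and 0.12 at 5 weeks against TAA. It leaves replicate 19 as the only 2-week library, which is assumed to vary like the other groups. Both log2(FPKM) scales gave 0.07 and -0.33 against TAA, as library totals alone gave 0.07 and -0.30. The GC correction and the summed loci were chosen after seeing the data.

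Counts over all genes moved more. At 2 weeks against TAA, 488 genes were called, and 1722 with library totals alone and 1713 with DESeq2. The number was 1983 with log2(FPKM + 1) and 1639 with log2(FPKM + 0.1). It was 1023 with only the groups compared, and 1 to 1095 with a library left out. At 5 weeks against TAA, 190 were called, and 77 with upper quartile scaling, 504 with library totals alone, 1188 with DESeq2, 105 without the filter, 1001 and 693 with the FPKM scales, 607 with length removed, 923 with length and GC removed, 1 with only the groups compared, 7 without replicates 17, 18 and 23, and 0 to 240 with a library left out. Between the courses, 3 were called, and 788 with DESeq2, 5 with log2(FPKM + 1), 6 with length removed and 5 with length and GC removed. The number was 0 with only the groups compared, and 1 to 1889 with a library left out, the most without replicate 27. Without replicates 17, 18 and 23, replicate 19 alone stands for 2 weeks, so no count is given for comparisons with that group. The cause of these shifts was not tested.

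The members' share of reads, 3.15%, 3.28% and 2.55% in TAA, 2-week and 5-week livers, was 5.35%, 6.02% and 4.51% without the 100 most abundant other genes, and 7.10%, 6.89% and 5.68% of summed FPKM, where the 2-week mean lies below TAA. Over the alternatives, 32 named members gave 2013 values, of which 19 gained a call and 99 moved by more than their error, and 196 uncalled values changed sign. No member was called at first, so no call could be lost or reversed.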

Other observations

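In the deposited transcript estimates, 67 of 82 members had a single transcript and 15 had several. The shares of reads over transcripts of Rpl29, Rpl38 and Rps24 differed by a few percentage points between libraries at most. Others varied more widely, such as a 519-base Rpl30 transcript at 34.3% to 44.7% and a 490-base Rpl35a transcript at 63.3% to 72.1%. Rpl37rt differed more: its 683-base transcript held 12.5%, 39.5% and 26.5% of its estimated reads in TAA, 24.4%, 22.4% and 19.2% after 2 weeks, and 1.6%, 4.4% and 1.8% after 5 weeks. The 5-week livers lay below all others, on 2, 11 and 3 estimated reads against 35 to 114 in the other 6 libraries. This was noticed after the values were seen and was not tested. For Rpl22, a 2203-base transcript held 89.8% of the estimate in TAA replicate 12 and 24.2% to 35.0% in the other 8 libraries, while its summed CPM in that replicate lay between those of the other controls.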
